A study of Saccharomyces cerevisiae with 16 samples.

Results

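The probes described here, of a yeast expression array, are those on which the strain PHO84c stood higher than wild type (WT) at 23 h in medium holding 500 µM phosphate, each strain being measured against its own 0 h samples. They were chosen by their 23 h values and Cy3 values at 0 h. For each probe and strain, the change at 23 h was the 23 h value minus the mean of the Cy3 samples at 0 h (replicates 1 and 2), on a log2 scale. A member had values in all 16 samples and a PHO84c change that exceeded the WT change by more than 1.25 (2.38-fold). The rule found 150 members among 5787 probes with all values (2.59%), of 6255 probes in the table. By the WT change they fell into 50 probes that also rose at least 2-fold in WT and rose further in PHO84c (larger rise), 29 that fell at least 2-fold in WT (smaller fall; in PHO84c 7 of them stood above 0 and the others fell less than in WT), and 71 that changed less than 2-fold in WT (called PHO84c only). All values at 23 h are therefore a description. Where a test at 23 h is mentioned below, nothing is read from its outcome, because the rule chose the members on the same difference.

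Saccharomyces cerevisiae cells of both strains were grown in synthetic complete medium, washed, and diluted into the same medium with an intermediate phosphate level. WT is labelled wild type, and PHO84c is labelled as having abundant PHO84c, and the series title speaks of abundant high-affinity transporters. Neither the way in which the transporter was made abundant nor the strain background is given in the sources used here. Each strain had 4 samples at 0 h, which were both dye channels of 2 arrays (replicates 1 and 2 in Cy3, 3 and 4 in Cy5), and 1 Cy3 sample at each of 1, 5, 8 and 23 h. The sample titles all give 500 µM, although a treatment label reads 0.5 M and the growth protocol 0.5 mM, and the value of the titles and protocol is used here. With 1 level in all samples, the phosphate level cannot be told apart from time in culture and growth. Each strain was read from scans of its own, so that strain and scan cannot be told apart either.

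In yeast, phosphate enters mainly through the plasma membrane transporter Pho84 when it is scarce. Low phosphate inhibits the kinase complex Pho80-Pho85, and the transcription factor Pho4 then enters the nucleus and turns on the genes of the PHO regulon, among them transporters, phosphatases and the polyphosphate synthases of the VTC complex. Inositol polyphosphates made by a chain that starts with phospholipase C (Plc1) and includes the kinase Kcs1 feed into this control. The series title concerns a later starvation response where such transporters are abundant.

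A gene name was listed for 28 of the 150 members, and the other 122 are unnamed here. A name stands for the probe listed under it and may be wrong for it, because names of one co-regulated family did not move together. Probes carrying names of cytosolic ribosomal proteins ranged from -3.00 to 3.99 in WT at 23 h (log2 change, 52 probes). Their SD was 1.54 in WT, against 1.55 over all probes with all values, and 1.70 in PHO84c, against 1.69. These names thus spread as widely as the probes at large, and no value below shows that a probe measured its listed gene. The roles given below, also in the gene lists, are those of the listed genes. Values are given as log2 ratios to the 0 h samples of the same strain, a scale read from the numbers themselves, so absolute levels cannot be compared between the strains. The 23 h samples held the widest spread of all samples, with an SD over probes of 1.54 in WT and 1.68 in PHO84c, against 0.0772 to 0.142 at 0 h and 0.325 to 0.464 at 1, 5 and 8 h. Each sample held values for 6125 to 6231 probes. The number of arrays limits the precision. Separate cultures are not stated for the 0 h samples, so standard errors and p-values measure only how far these samples spread, which may be a technical spread.

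The strain difference at 23 h (PHO84c change minus WT change) ran from 1.25 to 4.01 over the members, with a median of 1.47 against -0.0053 over all probes with all values. Above 2 (4-fold) lay 17 members. The members made up 4.09% of the 1223 probes that rose at least 2-fold in WT, 2.07% of the 1404 that fell at least 2-fold and 2.25% of the 3160 between. By the same threshold 86 probes were lower in PHO84c, 23, 20 and 43 of them in these 3 groups. The limma fit over all probes called 140 of the 150 higher in PHO84c at 23 h and 0 lower, where 4.7% of all probes were called higher and 3.33% lower. Nothing is read from that count, since the rule used the same contrast. Of the 10 members without a call, 6 had a pair of 0 h samples of the same dye more than 1 log2 unit apart. The standard error of the 23 h difference was 0.185 in the median and reached 2.39.

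Values ran without a gap across the threshold. The member nearest to it was the probe listed as SCS2 at 1.25212, followed by probe 4349 at 1.2524. Just outside lay the unnamed probe 6086 at 1.24832 and, among named probes, LYS14 at 1.23807. A further 5 probes passed the threshold but lacked a value in 1 to 3 samples. One of them is listed as PLO1, with a WT change of 2.48 beside a PHO84c change of 4.58.

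In all 3 classes the medians of the strains ran close together through 8 h and parted between 8 and 23 h, an interval in which no sample was taken. The larger-rise probes had median changes of -0.32, -0.33 and -0.18 in WT at 1, 5 and 8 h and of -0.19, -0.15 and -0.12 in PHO84c, before 2.20 (quartiles 1.35 and 3.05) and 3.96 (quartiles 3.10 and 5.04) at 23 h. All 50 of them had their highest value of the 8 samples at 23 h in both strains. The PHO84c-only probes stayed at -0.20, -0.26, -0.16 and -0.18 in WT at the 4 later times, whereas in PHO84c they went from -0.09, -0.09 and -0.09 to 1.34 (quartiles 0.94 and 2.08 at 23 h). For 69 of these 71 probes the 23 h sample was the highest of the 8 PHO84c samples. In WT the 23 h sample was the highest for 24 of the 71 and the lowest for another 24. The smaller-fall probes lay at -0.12, 0.07 and 0.01 in WT and 0.0016, 0.05 and -0.0054 in PHO84c at 1, 5 and 8 h, and at -1.76 and -0.28 at 23 h. Of these 29, the 23 h sample was the lowest of 8 for all 29 in WT and for 14 in PHO84c. The counts of highest and lowest samples follow largely from the rule, the class limits and the wide spread at 23 h. The same counts over all probes are not given here, so nothing is read from them.

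Among the larger-rise probes, 14 had a listed name. The widest gap of a named member was that of SCT1, a glycerol-3-phosphate acyltransferase at the first step of glycerolipid synthesis. Its WT values at 0 h were -0.10, 0.07, -0.12 and 0.15 (replicates 1 to 4), and those at 1, 5, 8 and 23 h were -0.72, -1.18, -0.69 and 4.70. In PHO84c it stood at -0.09, 0.08, 0.04 and -0.03 at 0 h and at -0.36, -0.48, -0.54 and 7.02 later. Both strains were thus below their 0 h samples through 8 h and far above them at 23 h (26.3-fold and 130-fold), with a strain difference of 2.30 ± 0.23 (SE of the limma fit; 4.94-fold). RTG2 is listed for the sensor of retrograde signalling, by which mitochondria inform the nucleus. Its WT samples gave 0.13, -0.06, 0.09 and -0.08 at 0 h and -9.1e-05, 0.76, 0.57 and 3.08 at the later times. The PHO84c samples gave -0.07, 0.07, -0.11 and 0.10 and -0.76, 0.45, 0.23 and 5.05, so that PHO84c was lower than WT at 1, 5 and 8 h and higher at 23 h, by 2.01 ± 0.172. SRD1, linked to the processing of ribosomal RNA precursors, read 0.15, -0.08, 0.18 and -0.18 at 0 h in WT and 0.33, 0.52, 0.33 and 4.35 later. In PHO84c the same probe read -0.13, 0.12, -0.20 and 0.17 and then 0.28, 0.73, 1.10 and 6.26. Its change at 8 h in PHO84c had passed the test (1.11 ± 0.185, limma adjusted p = 0.0125), and at 23 h the strains differed by 1.95 ± 0.261.

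RHO1 encodes the GTPase that controls cell wall synthesis, and SAC7 a protein that turns Rho1 off. RHO1 lay at -0.03 to 0.04 at 0 h in WT and took -0.44, -0.47, -0.41 and 1.41 at the later times, against -0.15 to 0.15 and -0.32, -0.44, -0.40 and 2.97 in PHO84c. Its early values were alike in both strains, and the gap at 23 h was 1.56 ± 0.178. SAC7 went from values between -0.37 and -0.11 at 1 to 8 h to 1.51 in WT, and reached 2.76 in PHO84c. SBE22, which acts in the transport of cell wall components to the bud, was at -0.09 to 0.13 at 0 h in WT and at -0.38, -0.51, -0.29 and 1.18 later, and in PHO84c at -0.04 to 0.05 and -0.33, -0.64, -0.79 and 3.08. Below 0 in both strains until 8 h, it ended 3.74-fold further up in PHO84c. SNC1, a SNARE protein of secretory vesicles, had 0 h values of -0.06, 0.04, 0.04 and -0.003 in WT and -0.06, 0.06, -0.01 and 0.02 in PHO84c. Its later values were 0.18, 0.08, 0.17 and 2.94 in WT and 1.22, 0.10, 0.02 and 4.41 in PHO84c. Its gap at 1 h, which closed at 5 and 8 h, was the only strain difference of a named member called before 23 h. Other named members had gaps at 1 h that stayed under 2-fold, as given below. ARC19, a subunit of the Arp2/3 complex that nucleates actin, fell at 1 h in WT (-1.56 ± 0.128, adjusted p = 0.000296, limma) and ended with changes of 2.49 in WT and 3.78 in PHO84c. Its values were 0.10, -0.05, 0.07 and -0.06 at 0 h and -1.54, -0.78, -0.26 and 2.52 later in WT, and -0.06, 0.06, -0.13 and 0.12 and -0.89, -0.81, -0.64 and 3.78 in PHO84c.

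RIB1, the first enzyme of riboflavin synthesis, took -0.50, -0.42, -0.70 and 1.92 at the later times in WT (0 h -0.15 to 0.09) and -0.70, -0.81, -0.12 and 3.61 in PHO84c (0 h -0.01 to 0.02). GCV2, a subunit of the glycine cleavage complex, took 0.32, -0.16, -0.0012 and 1.21 in WT (0 h -0.03 to 0.04) and 0.31, 0.35, 0.61 and 2.58 in PHO84c (0 h -0.09 to 0.10). Both lay above all their 0 h samples at 23 h in each strain, and PHO84c was above WT by 1.65 ± 0.15 and 1.37 ± 0.144. MPT5, an RNA-binding protein of the Pumilio family, went to 1.37 and 2.70. MRP51, of the small mitochondrial ribosomal subunit, went to 1.34 and 2.66, and DPL1, which breaks down sphingoid base phosphates, to 1.05 and 2.32. The RNA exonuclease REX3 reached 2.79 and 4.10, but its Cy5 samples at 0 h in WT were -1.33 and 0.66, and its strain difference carried an SE of 1.35. The largest difference of any member was that of the unnamed probe 14143. It stood at 0.08, -0.02, 0.07 and -0.06 at 0 h and 0.40, 0.47, -0.14 and 1.36 later in WT, and at -0.09, 0.08, -0.05 and 0.05 and -0.20, 0.19, 0.24 and 5.34 in PHO84c. A 2.52-fold rise in WT thus stood beside a 40.7-fold rise in PHO84c.

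The PHO84c-only class, in which WT changed less than 2-fold, held 11 named probes. SPC24, of the Ndc80 complex that links kinetochores to microtubules, was flat in WT. It read 0.01, -0.0035, -0.02 and 0.02 at 0 h and 0.05, -0.11, 0.02 and -0.01 at 1, 5, 8 and 23 h. In PHO84c it read 0.13, -0.13, 0.10 and -0.09 at 0 h and 0.85, 0.58, 0.35 and 2.00 later, so that every later PHO84c sample lay above all 8 WT samples. The gap at 23 h was 2.01 ± 0.163 (4.04-fold). ISA1, which helps assemble iron-sulfur clusters in mitochondria, ran the other way before 23 h. Its WT samples were -0.08, 0.07, 0.07 and -0.03 at 0 h and 0.30, 0.70, 0.76 and -0.15 later, and its PHO84c samples 0.07, -0.06, 0.03 and -0.02 and -0.09, -0.15, -0.10 and 1.78. WT was the higher strain at 1, 5 and 8 h and PHO84c at 23 h, where the difference was 1.92 ± 0.213. ARO1, the enzyme of 5 steps of aromatic amino acid synthesis, was at -0.13, 0.07, -0.14 and 0.12 at 0 h and 0.03, -0.12, -0.03 and -0.05 later in WT. PHO84c samples read 0.14, -0.14, 0.17 and -0.16 and -0.03, -0.05, 0.22 and 1.73, with a value outside the spread at 0 h only at 8 and 23 h. LEU1, isopropylmalate isomerase of leucine synthesis, took -0.26, -0.06, 0.0024 and 0.85 in WT (0 h -0.22 to 0.25) and 0.08, 0.14, -0.05 and 2.65 in PHO84c (0 h -0.07 to 0.07), and differed by 1.80 ± 0.39.

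PLC1, the phospholipase C whose product feeds inositol polyphosphate synthesis, read -0.10, 0.07, -0.04 and 0.07 at 0 h and -0.35, -0.32, -0.16 and -0.92 later in WT. The PHO84c samples were 0.03, -0.02, -0.15 and 0.13 at 0 h and -0.60, -0.16, -0.34 and 0.80 later, below 0 in both strains until 8 h and on opposite sides of 0 at 23 h. KCS1, which makes inositol pyrophosphates, stood at 0.01, -0.0045, 0.03 and -0.03 and 0.17, -0.05, -0.03 and -0.65 in WT and at 0.12, -0.12, 0.11 and -0.11 and -0.02, 0.05, 0.20 and 0.64 in PHO84c. Its strain difference of 1.29 ± 0.161 came from a lower WT and a higher PHO84c value of similar size, neither of which reached 2-fold. WTM1, a transcriptional modulator, took 0.16, 0.06, -0.03 and 0.97 in WT (0 h -0.07 to 0.10) and -0.48, -0.33, -0.88 and 2.63 in PHO84c (0 h -0.03 to 0.04), with PHO84c lower at each early time. MCT1, of mitochondrial fatty acid synthesis, took -0.60, -0.27, 0.04 and 0.67 in WT (0 h -0.05 to 0.03) and 0.36, 0.20, 0.24 and 2.33 in PHO84c (0 h -0.08 to 0.08), with PHO84c higher at every later time. RFA3, of the single-strand DNA binding complex RPA, took -0.01, -0.07, 0.13 and 0.59 in WT (0 h -0.01 to 0.05) and 0.0017, 0.13, 0.08 and 2.04 in PHO84c (0 h -0.10 to 0.10). For RFA3 the strains differed by at most 0.21 through 8 h and by 1.46 ± 0.188 at 23 h. PIG1, linked to the phosphatase that controls glycogen synthesis, changed by -0.38 in WT and by 1.07 in PHO84c by 23 h, with a wide SE of 0.638 for the difference. SCS2, an endoplasmic reticulum protein that binds lipid regulators, was at 0.07 and 1.32.

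Over the 71 probes of this class, the PHO84c change at 23 h was at least 2-fold for 51 and above 0 for all 71. The WT change was above 0 for 29. The unnamed probe 3190 had the widest gap. In WT it read 0.10, -0.08, -0.12 and 0.13 at 0 h and -0.11, 0.18, 0.03 and -0.66 later, and in PHO84c 0.07, -0.06, -0.05 and 0.05 and -0.25, -0.21, 0.34 and 2.44. All samples of both strains except the 23 h pair lay between -0.25 and 0.34.

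The smaller-fall class had 3 named probes. LAS1, which acts in the cutting of ribosomal RNA precursors, was at 0.05, -0.02, 0.04 and -0.04 at 0 h and 0.18, 0.25, 0.33 and -2.18 later in WT. PHO84c gave 0.01, -0.01, 0.0026 and -4.6e-05 and -0.54, 0.37, 0.58 and -0.35, so the level at 23 h was 0.218 of that at 0 h in WT and 0.783 in PHO84c. YOX1, a homeodomain repressor of the cell cycle, rose by 1.09 ± 0.132 at 8 h in WT (limma adjusted p = 0.0025) and by 1.01 in PHO84c (adjusted p = 0.00647). Its WT values ran -0.09, 0.66, 1.07 and -1.88 (0 h -0.06 to 0.05) and its PHO84c values 0.25, 1.00, 1.01 and -0.56 (0 h -0.05 to 0.05), so the same course appears in both strains with a shallower final drop in PHO84c. SPO12, which promotes exit from mitosis, took -0.14, 0.02, 0.02 and -1.24 in WT (0 h -0.09 to 0.12) and -0.25, -0.29, -0.09 and 0.14 in PHO84c (0 h -0.16 to 0.16). Of the 29 probes in the class, 24 changed less than 2-fold in PHO84c at 23 h, 4 fell at least 2-fold and 1 rose that far. The last is the unnamed probe 10044 (-1.08 in WT and 1.04 in PHO84c). The widest gap was that of the unnamed probe 13934, with 0.19, -0.09, 0.10 and -0.10 and 0.43, 1.77, 1.69 and -2.32 in WT and -0.08, 0.07, -0.08 and 0.08 and -0.19, 1.22, -0.07 and 0.47 in PHO84c. Its change at 5 h passed the test in both strains (limma adjusted p = 0.000485 in WT and 0.0022 in PHO84c), and its change at 8 h passed in WT (adjusted p = 0.000656) but not in PHO84c (adjusted p = 0.781).

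How the 23 h gap divides among the classes depends on the scale of the 23 h samples, of which PHO84c had the larger spread. With the pair of 23 h samples brought to the same distribution, an alternative chosen after seeing the data, 133 probes passed the threshold and 117 of the 150 were among them. The larger-rise class then held 30 probes and the smaller-fall class 47, against 50 and 29 as deposited. The PHO84c-only class held 56, and 55 of these were in it before. With the mean of the 1, 5 and 8 h samples as baseline, so that no 0 h sample entered, 146 probes passed and 102 of them were members.

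Whether the members already differed between the strains before 23 h was tested in the same limma fit at 1, 5 and 8 h. These contrasts use other later samples than the rule but share its Cy3 samples at 0 h. An error at 0 h that raised a member's difference at 23 h raises its early difference as well. The choice of members therefore favours early differences towards higher in PHO84c, and how far it does so was not tested. A difference was called where it was at least 2-fold and its limma p, adjusted by Benjamini-Hochberg across the whole array, was under 0.05. At 1 h, 10 members (6.67%) were called higher in PHO84c, against 1.87% of all probes, and 1 (0.667%) was called lower, against 0.536%. The median difference over the members was 0.09, against -0.02 over all probes. The calls were 2 larger-rise, 6 PHO84c-only and 2 smaller-fall probes. At 5 h, 1 member was called higher (0.261% of all probes were) and 0 lower (0.423%), and 28 and 6 members had an unadjusted limma p under 0.05 in these directions (8.39% and 8.71% of all probes did). At 1 h these numbers were 35 and 14 (14.8% and 15.7%), and at 8 h 16 and 11 (6.31% and 5.23%). The median difference at 5 h was 0.14 against 0.0021. At 8 h, 1 was called higher (0.343%) and 3 lower (0.409%), with a median of 0.02 against -0.0076. Without PHO84c replicate 1 at 0 h, the lower calls at 8 h fell to 1. Within classes the median lay between -0.07 and 0.15 at these times. No call at these times was made for 135 of the 150 members (90%, against 96.7% of all probes with all values), and for 91 the difference stayed within 0.5 at each of them (60.7% against 69.9%). The sign was positive at all 3 times for 40 members (26.7% against 20.9%) and negative for 24 (16% against 22.9%). Each strain and time had 1 array, so a call does not separate strain from array.

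Among named members, SNC1 alone had a strain difference called before 23 h, at 1 h (1.04 ± 0.161, limma adjusted p = 0.0132). Its PHO84c change at that time was 1.22 ± 0.114 (adjusted p = 0.000906) and its WT change 0.18. The difference was 0.97 without WT replicate 2 at 0 h and 0.99 without PHO84c replicate 1, just under the 2-fold limit. MCT1 differed by 0.95 ± 0.142 and SPC24 by 0.80 ± 0.163 at 1 h (adjusted p = 0.0118 and 0.0276), both under 2-fold. LAS1 and RTG2 were lower in PHO84c at 1 h, by -0.71 ± 0.114 and -0.72 ± 0.172 (adjusted p = 0.0146 and 0.0417), also under 2-fold. At 5 and 8 h the differences of the named members lay between -0.86 and 0.81, and the smallest limma adjusted p was 0.104 at 5 h and 0.137 at 8 h.

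Of the unnamed probes with an early call, 3 are given by sample, chosen after their values were seen. Probe 9206, of the smaller-fall class, was the one member called at 2 of the 3 early times. In WT it read 0.05, -0.02, 0.02 and -0.02 at 0 h and -0.61, 0.32, -0.15 and -0.99 later, and in PHO84c 0.03, -0.02, 0.0044 and -0.00096 and 1.44, 1.16, 0.90 and 0.69. PHO84c lay above all its 0 h samples at every later time, and the difference was 2.06 ± 0.119 at 1 h and 1.06 ± 0.119 at 8 h (limma adjusted p = 0.000473 and 0.0115). Probe 13934, described above, was lower in PHO84c at 8 h (-1.71 ± 0.185, adjusted p = 0.01) and higher at 23 h. Probe 15377, a larger-rise member, differed by 4.08 ± 0.652 at 5 h (adjusted p = 0.039), from -0.99, -2.36, -0.99 and 3.77 in WT and 1.38, 1.61, 1.98 and 5.03 in PHO84c. Its WT samples at 0 h spread from -0.80 to 0.74, and the call at 5 h was lost without any single 0 h replicate of either strain, with adjusted p between 0.0517 and 0.124. Probes 5319 and 15512 (1.25 ± 0.156 and 1.11 ± 0.148 at 1 h, adjusted p = 0.00708 and 0.0091) kept their call without any single 0 h replicate.

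The early strain difference was also tested over 1, 5 and 8 h together, in the 6 samples of these times with time as a block. In that fit the spread comes from the later samples and not from those at 0 h. The values are still ratios to the 0 h samples of each strain, so the baseline is shared with the rule. Of the members, 1 was called higher (0.129% of all probes were) and 0 lower (0.354%), while 35 and 12 had an unadjusted limma p under 0.05 (9.44% and 9.72% of all probes did). The called member was probe 15377 (3.10 ± 0.271, adjusted p = 0.00557), and with the 0 h samples in the fit its adjusted p was 0.0546. Among the named, ISA1 stood at -0.70 ± 0.138, WTM1 at -0.63 ± 0.132 and SPC24 at 0.61 ± 0.133 (adjusted p = 0.0846, 0.093 and 0.0949).

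Within each strain, the share of members called lower at 1, 5 and 8 h was above that of all probes, and in PHO84c so was the share called higher. In WT, 16 members were called lower and 2 higher at 1 h (2.65% and 1.4% of all probes were), 14 and 1 at 5 h (1.32% and 0.917%), and 6 and 4 at 8 h (1.3% and 0.738%). Without WT replicate 1 the higher calls at 1 h fell to 1. As shares of the members, the lower calls were 10.7%, 9.33% and 4%, and the higher calls 1.33%, 0.667% and 2.67%. In PHO84c, 12 were lower and 7 higher at 1 h (1.29% and 1.63%), 10 and 5 at 5 h (0.926% and 0.666%), and 7 and 5 at 8 h (0.702% and 0.359%), and the lower calls made up 8%, 6.67% and 4.67% of the members and the higher calls 4.67%, 3.33% and 3.33%. The higher calls at 8 h in PHO84c were 2 larger-rise and 3 smaller-fall probes, with SRD1 and YOX1 as the named ones. In the smaller-fall class early calls were mostly upward in PHO84c, with 3, 4 and 3 higher and 0, 1 and 1 lower. In WT this class had 1, 1 and 3 higher and 1, 2 and 0 lower, so that the higher calls at 8 h were as many as in PHO84c. A probe can be counted at more than 1 time. In the other classes most early calls, summed over the 3 times, were downward in either strain. SCT1 was one of them, at -1.16 ± 0.162 in WT at 5 h (limma adjusted p = 0.00416). All these comparisons share the 0 h samples of their strain with the rule. Among the members this favours higher changes in PHO84c and lower ones in WT.

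The 27 gene lists, arranged by role, were written with earlier results of these data known. They held 461 of the 1608 named probes, and the limit on listed names given above holds for them too. Of the 28 named members, 15 fell on 13 lists, at most 2 to a list. Nothing is read from that share, since the lists were not drawn up blind to these data. Of the 21 genes on the PHO regulon list, only 7 had a listed probe, and PHO84 was not among them. The list had 6 probes with all values and 1 member, KCS1. The median strain difference of these 6 probes at 23 h was -0.30, against -0.0053 over all probes with all values. Most of the listed regulon was thus not seen here. VTC4, a polyphosphate synthase, stood at 1.85 in both strains at 23 h, a difference of -0.0042 ± 0.268. The phosphatase PHO8 differed by 0.30 ± 0.144 at 23 h, GIT1, a glycerophosphoinositol transporter, by -1.20 ± 0.149, HOR2, a glycerol phosphatase, by -0.60 ± 0.189, and PHM7 by -0.99 ± 0.144. The values at 23 h thus lay on both sides of 0. The list of PHO pathway regulators had 13 genes and 6 listed probes. Among its 5 probes with all values, PLC1 was the member, and the median was 0.30. PHO80, the cyclin of the complex that restrains Pho4, changed by 0.78 in WT and 1.07 in PHO84c by 23 h. PHO2, a partner of Pho4, differed by -0.66 ± 0.129 at that time, GTR1 by 0.57 ± 0.318 and the transporter PHO87 by 0.25 ± 0.166. PHO81, the inhibitor of Pho80-Pho85, is on both lists and had no value in PHO84c at 23 h. It changed by -1.39 ± 0.0998 at 1 h in WT (adjusted p = 0.000189, limma), and the strain difference at 1 h was 1.15 ± 0.141 (adjusted p = 0.00674). It was the only probe of either list with a strain difference called at 1, 5 or 8 h.

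Ribosome biogenesis held LAS1 and SRD1 among 23 probes with all values (median strain difference at 23 h 0.09), and cell wall and polarity held RHO1 and SBE22 among 26 (median 0.22). Before 23 h, 0 ribosome biogenesis probes had a strain difference called, and 1 cell wall and polarity probe was called lower at each of 1, 5 and 8 h. Leucine and branched-chain synthesis held LEU1. Its median at 23 h was 1.13 over the 4 probes with all values and 0.25 over all its probes measured at 23 h, and 1 probe was called higher at 1 h. Aromatic amino acid synthesis (ARO1, of 4), glycerolipid synthesis (SCT1, of 14), iron (ISA1, of 16), retrograde signalling and TCA cycle (RTG2, of 10), kinetochore and spindle (SPC24, of 21), replication and repair (RFA3, of 19), meiosis and sporulation (SPO12, of 18) and the mitochondrial ribosome (MRP51, of 22) had 1 member each. Lists without a member included the 52 cytosolic ribosomal probes, 34 of membrane transport, 27 of the secretory pathway, 12 of the proteasome, 11 of the respiratory chain and 7 of general stress. Of all named probes with all values, 1.87% were members.

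At 0 h the members were slightly more variable than the average probe. The Cy5 samples differed within a strain by a median of 0.138 over the members in WT and 0.136 in PHO84c. Over all probes with all values these medians were 0.114 and 0.1. The Cy3 pairs, whose values the rule used, differed by 0.127 and 0.108, against 0.104 and 0.0922. The rule did not use the Cy5 values, but they are the other channel of the same arrays and so are not independent of it. With the probes split by probe number into 5 runs of 1157 or 1158, the runs held 17, 37, 47, 21 and 28 members in turn. Whether the number follows a position on the array is not given in the sources used here.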

How the data were processed

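Labelled RNA was hybridised to dual-colour Agilent yeast arrays and images were read with SpotReader, per the labels' protocols. The sources used here do not state scan merging or normalization. Per probe, the deposited numbers were read as log2 ratios, relative to the 0 h pair of the same strain and dye, because 97.8% to 100% of probes had a pair mean within 0.05 of 1 on the linear scale. Gene names came from the platform annotation (1608 of 6255 probes), and all were found in the R64 gene table, used for names alone. Probes were not averaged. The model was fitted with limma 3.58.1 in R 4.3.3 to the 16 samples together, with one mean for each strain at each time, a dye term per strain and the array as random block (correlation 0.761, 4 residual degrees of freedom). Lone later samples were assumed to vary like those at 0 h. The script was tested on simulated data. Alternatives covered dye terms, blocks, left-out replicates, centring, quantile normalization, filters and thresholds. Members, lists and rules were chosen with earlier results of these data known. All named members are given, with values by sample for up to 8 per class and for any called early, and unnamed probes by number.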

Additional observations from a re-analysis of the deposited data

Results flagged for a closer look

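The strain difference passed its own test before 23 h for 15 members, and each value rests on 1 array per strain and time. No call at 1, 5 or 8 h was made for 90% of the members, against 96.7% of all probes with all values. All but 1 of the 15 are unnamed, as are 122 of the 150 members. The tests at 1, 5 and 8 h share the Cy3 samples at 0 h with the rule, which favours differences towards higher in PHO84c. At 1 h (limma, log2), PHO84c was higher at probes 9206 (2.06), 10038 (1.66), 15557 (1.62), 13829 (1.51), 5319 (1.25), 6108 (1.20), 9559 (1.17), 4111 (1.16) and 15512 (1.11) and at SNC1 (1.04), and lower at probe 14063 (-1.12). The difference at 5 h was 4.08 at probe 15377, which also differed over 1, 5 and 8 h together (3.10). At 8 h probe 9206 was higher (1.06), and probes 13934 (-1.71), 467 (-1.51) and 8390 (-1.11) were lower in PHO84c, although all 3 were higher there at 23 h. The calls for probes 10038, 14063, 467 and 8390 were lost without some 0 h replicates: any PHO84c replicate for 10038, PHO84c replicate 1 or 2 for 14063 and 467, and replicate 1 of either strain for 8390, with limma adjusted p between 0.056 and 0.0842.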

How the results depend on the processing

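Each later time has 1 array per strain, strain and scan cannot be told apart, and the baseline is shared by the rule and the tests. No result tested reversed under an alternative, but a count has no sign to reverse. Of the checks of counts, 261 were graded as about the same and 64 as moved. The 150 members became 136 to 168 without 1 Cy3 replicate at 0 h. With a difference of at least 1 there were 283, and above 1.5 there were 71. Quantile normalization of all 16 samples left 1. By construction it gives every sample the mean distribution of all 16, which widens the 0 h samples and narrows those at 23 h. Of the members, 81 stayed under all 7 other alternatives that kept the threshold (23 larger rise, 17 smaller fall and 41 PHO84c only). Left-out replicates gave 38 to 58 larger-rise, 26 to 33 smaller-fall and 72 to 77 PHO84c-only members. The classes became 0, 1 and 0 with quantile normalization, and larger rise 30 and smaller fall 47 with the 23 h samples matched to each other. Quantile normalization also left 0 members called for every strain difference and change at 1, 5 and 8 h, and 3 called higher for the strain difference over those times, as did median centring, against 1. With the 0 h samples kept in that fit the count was 0. Without a minimum change, the strain difference gave 21, 4 and 2 members higher at 1, 5 and 8 h, and 3 lower at 1 h. In WT at 1, 5 and 8 h that setting gave 8, 14 and 12 members higher and 42, 48 and 24 lower, and in PHO84c 18, 20 and 10 higher and 36, 28 and 20 lower. Without the array block, 0 were higher at 5 h. Without the dye term or with median centring, 1 was higher in WT at 1 h. Left-out replicates gave, for the strain difference, 9 to 10 higher and 0 to 1 lower at 1 h, 0 higher at 5 h, and 1 higher and 1 to 3 lower at 8 h. In WT they gave 1 to 2 higher and 15 to 16 lower at 1 h. Replicate numbers did not pair the samples (deviations of the same number correlated at r = -0.235 and -0.194 between strains, across probes). With the replicate block, 0 members were lower at 1 h, 0 higher at 5 h, and 0 higher and 0 lower at 8 h, and 2 were higher in PHO84c at 8 h. Of the single probes' tests under an alternative, 46 lost their call and 200 kept it.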
